A study of Mus musculus with 8 samples.

Results

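CXC chemokines are small secreted proteins named for a pair of cysteines that flank a single residue near the amino terminus, and they steer leukocytes through G protein-coupled receptors. Those that carry the tripeptide glutamate-leucine-arginine before the cysteines, among them Cxcl1, Cxcl2 and Cxcl3, act on Cxcr2 and attract neutrophils, while the interferon-induced Cxcl9 and Cxcl10 act on Cxcr3 of T cells and natural killer cells. In bone marrow Cxcl12, made mainly by stromal cells, holds blood progenitors, B lineage cells and plasma cells in place through Cxcr4. The 9 genes described here, Cxcl1, Cxcl2, Cxcl3, Cxcl9, Cxcl10, Cxcl12, Cxcl13, Cxcl14 and Cxcl16, were taken by symbol, and all 9 were found among the 47643 genes of the macrophage table and the 52458 entries of the plasma cell table.

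RNA was sequenced from 8 samples sorted from bone marrow, and every mouse was wild type on the B6 background. Macrophages of tumour bearers (TAM, tumour-associated macrophages) came from mice whose tibia had been injected with CD138-purified, GFP-positive cells of Vk\*MYC, a mouse model of myeloma, a cancer of plasma cells. The sort took cells with high F4/80 and low CD11b. GFP-positive cells made up the TAM in contact with myeloma, here contact TAM (n = 2), GFP-negative cells the TAM without such contact, here non-contact TAM (n = 2), and macrophages of tumour-free naive mice the last group (n = 2). A further 2 samples are labelled plasma cells, and the labels do not say whether either held myeloma or polyclonal cells. No group had received a treatment. The labels number the TAM samples of each group as mouse 1 and mouse 2, and do not say how many animals gave each naive or plasma cell sample, or their age. For the naive and plasma cell samples the variation among replicates may therefore be technical.

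Macrophage libraries held 28887725 to 46873056 gene counts, and levels are given as CPM, the counts of a gene scaled to a common library total, for replicate 1 and then replicate 2. Where no read was counted, counting error alone leaves room for 3 counts, which are worth 0.064 to 0.104 CPM by library. The 8 macrophage markers were detected in every macrophage library, with a summed level of 5381 and 6083 CPM in contact TAM, 18849 and 11801 CPM in non-contact TAM, and 19363 and 9840 CPM in naive macrophages. Markers of neutrophils, monocytes and eosinophils were also present, and each of their sums was lowest in both libraries of non-contact TAM. Neutrophil markers summed to 27476 to 47494 CPM in contact TAM, 7344 to 16870 CPM in non-contact TAM and 45354 to 66133 CPM in naive macrophages. Monocyte markers summed to 3197 to 6497 CPM in contact TAM, 1589 to 1972 CPM in non-contact TAM and 3962 to 6765 CPM in naive macrophages. Eosinophil markers summed to 885 to 1404 CPM in contact TAM, 67.4 to 68.7 CPM in non-contact TAM and 635 to 1790 CPM in naive macrophages. Dendritic cell markers were not lowest there. They summed to 35.7 to 75.4 CPM in contact TAM, 37.5 to 42.9 CPM in non-contact TAM and 36.1 to 36.4 CPM in naive macrophages. The part of these cells in the chemokine differences was not tested. One library stood apart in its immunoglobulin content, which was 9.48% of counts in non-contact TAM replicate 2 and at most 0.677% in each of the other macrophage libraries. contact TAM replicate 2 had 88.4 CPM of the Y-linked gene Ddx3y and 0 CPM of Xist, the reverse of all other macrophage libraries, so the contact TAM libraries came from different animals.

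The 9 transcripts together reached 488 and 135 CPM in contact TAM, 817 and 1349 CPM in non-contact TAM, and 79.4 and 50.3 CPM in naive macrophages. Each TAM library lay above both naive libraries in this sum, and the TAM groups did not overlap each other. Scaled to transcript length, Cxcl10 had the highest mean level in contact TAM at 80.3 CPM per kilobase, Cxcl2 in non-contact TAM at 224 CPM per kilobase, and Cxcl16 in naive macrophages at 8.96 CPM per kilobase. Next in order of mean level per kilobase came Cxcl16 at 30.8 in contact TAM, Cxcl10 at 142 in non-contact TAM and Cxcl10 at 8.48 in naive macrophages. Within libraries, Cxcl10 exceeded Cxcl16 in both of contact TAM (148 against 54.8 and 12.6 against 6.91 CPM per kilobase), though Cxcl2 at 44.4 led in replicate 2, and Cxcl16 exceeded Cxcl10 narrowly in both of naive macrophages (11.1 against 10.3 and 6.86 against 6.65). In non-contact TAM the order differed between the libraries. Cxcl16 led in replicate 1 at 176 CPM per kilobase, followed by Cxcl10 at 116, Cxcl9 at 50.3 and Cxcl14 at 14.2. Cxcl2 was at 3.56 there. In replicate 2 Cxcl2 led at 443, followed by Cxcl10 at 168 and Cxcl16 at 67.4 CPM per kilobase.

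**Figure D1:**
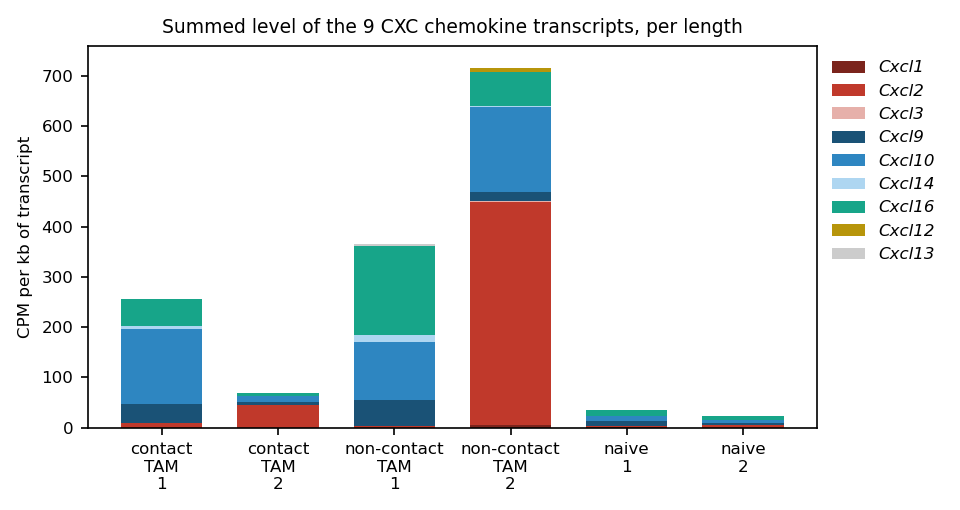
Level of each of the 9 CXC chemokine transcripts in the 6 macrophage libraries, in CPM per kilobase of the longest coding transcript, stacked. The sums were 256 and 69.7 in contact TAM, 365 and 716 in non-contact TAM, and 35 and 22.7 in naive macrophages, and Cxcl2 made up most of the bar in non-contact TAM replicate 2.

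The neutrophil attractants were led by Cxcl2 (ENSMUSG00000058427.10, GRCm38 chromosome 5, 90903871 to 90905938, plus strand). It stood at 18.0 and 82.5 CPM in contact TAM, 6.63 and 824 CPM in non-contact TAM, and 5.31 and 8.69 CPM in naive macrophages. Its highest value, in non-contact TAM replicate 2, was 124 times that of the other library of that group, which lay within the range of naive macrophages. contact TAM lay between the libraries of non-contact TAM and above both naive libraries. The log2 fold change (± SE, 2 libraries a group) was -2.98 ± 1.81 with an adjusted p = 0.443 for contact TAM over non-contact TAM, 3.02 ± 1.82 (adjusted p = 0.477) for contact TAM over naive macrophages and 6.0 ± 2.09 (adjusted p = 0.276) for non-contact TAM over naive macrophages. Without non-contact TAM replicate 2, the value between the TAM groups turned to 2.90 and that of non-contact TAM over naive macrophages was 0.10.

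Cxcl1 (ENSMUSG00000029380.11, chromosome 5, 90891241 to 90893115, plus strand), which attracts neutrophils through the same receptor, was scarce in most libraries. It had 1 count in each library of contact TAM, 0 and 148 counts in non-contact TAM, and 55 and 0 counts in naive macrophages. non-contact TAM replicate 2 was the highest at 4.77 CPM, naive replicate 1 had 1.17 CPM, and each of these groups had its other library at 0, so they overlapped. Summed over a group, contact TAM had 0.0113 times the Cxcl1 of non-contact TAM (95% exact counting interval 0.00136 to 0.0415) and 0.0318 times that of naive macrophages (0.00376 to 0.12), each ratio resting on 1 library of the other group. The fitted log2 fold changes, which depend on the prior count at such levels, were -6.46 ± 3.15, -4.36 ± 2.97 and, for non-contact TAM over naive macrophages, 2.10 ± 2.44 (adjusted p = 0.351, 0.52 and 0.745). They turned to 3.13 without non-contact TAM replicate 2, to 3.02 without naive replicate 1 and to -7.57 without non-contact TAM replicate 2, in the same order.

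Cxcl3 (ENSMUSG00000029379.10, chromosome 5, 90786103 to 90789600, plus strand), the third of these ligands, had 1 and 4 counts in contact TAM, 23 and 61 counts in non-contact TAM, and 0 and 2 counts in naive macrophages. Both libraries of non-contact TAM lay above those of the other groups, at 0.556 and 1.96 CPM, and contact TAM overlapped naive macrophages. The log2 fold change was -4.31 ± 1.55 (adjusted p = 0.247) between the TAM groups and 5.35 ± 1.68 (adjusted p = 0.25) for non-contact TAM over naive macrophages. For non-contact TAM over naive macrophages the ratio of summed counts was 43.9 (95% exact counting interval 11.8 to 369). Cxcl1, Cxcl2 and Cxcl3 are related in sequence, and the handling of reads that map to more than 1 of them is not stated in the sources used here.

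The 3 genes share a stretch of promoter, shown here because their levels were all highest in the same library. Cxcl10 and Cxcl12 were highest in that library, non-contact TAM replicate 2, too. The share of all genes that were highest there was not counted. Over genes, its log2 CPM correlated at 0.859 to 0.893 with the other macrophage libraries, against 0.883 to 0.969 among those. RefSeq sequences of 8 of the 9 genes were available (GRCm38.p6), and Cxcl16 was not among them. The stretches run from 130 to 31 bases before the transcription start on the plus strand, at chr5:90891115-90891214 for Cxcl1, chr5:90903769-90903868 for Cxcl2 and chr5:90785971-90786070 for Cxcl3, with matches to the kB consensus, the site bound by NF-kB, in capitals:
Cxcl1: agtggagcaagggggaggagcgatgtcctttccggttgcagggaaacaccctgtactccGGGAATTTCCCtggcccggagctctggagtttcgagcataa
Cxcl2: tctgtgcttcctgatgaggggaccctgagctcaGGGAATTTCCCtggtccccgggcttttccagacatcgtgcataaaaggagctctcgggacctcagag
Cxcl3: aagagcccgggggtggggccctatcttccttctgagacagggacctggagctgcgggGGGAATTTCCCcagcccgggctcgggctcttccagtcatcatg
Each holds the letters GGGAATTTCC, which lie within a kB consensus match on the plus strand that overlaps a further match on the minus strand. Within the 250 bases before the start and on either strand, this exact motif was found in 0.0852% of 32851 mouse promoters and the kB consensus in 7.25%. The exact motif was picked after the sequences were seen, and a match describes letters, not binding.

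Of the interferon-induced ligands, both were detected in every macrophage library. Cxcl10 (ENSMUSG00000034855.13, chromosome 5, 92346638 to 92348889, minus strand) had 200 and 17.1 CPM in contact TAM, 157 and 227 CPM in non-contact TAM, and 14.0 and 9.0 CPM in naive macrophages. All 4 TAM libraries lay above both naive libraries, contact TAM replicate 2 by a small margin, while the TAM groups overlapped each other. The log2 fold change over naive macrophages was 3.37 ± 1.05 (adjusted p = 0.259) in contact TAM and 4.20 ± 1.09 (adjusted p = 0.229) in non-contact TAM. Between the TAM groups it was -0.83 ± 0.96 (adjusted p = 0.703), and it turned to 0.06 without contact TAM replicate 2. Without contact TAM replicate 1 the value over naive macrophages was 0.77. For non-contact TAM over naive macrophages it stayed between 3.90 and 4.54 when any 1 of the 6 libraries was left out. Its exons share 133 bases with Art3 on the other strand, whose counts were at most 104 in any macrophage library, against at least 260 of Cxcl10.

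Cxcl9 (ENSMUSG00000029417.9, chromosome 5, 92321347 to 92328079, minus strand), a second ligand of Cxcr3, stood at 109 and 16.2 CPM in contact TAM, 145 and 54.8 CPM in non-contact TAM, and 25.2 and 10.9 CPM in naive macrophages. Both libraries of non-contact TAM lay above the naive libraries, and contact TAM overlapped each of the other groups. Its replicate 1 lay between the non-contact TAM libraries and its replicate 2 between the naive libraries. The log2 fold change was 2.62 ± 0.98 (adjusted p = 0.299) for non-contact TAM over naive macrophages, 1.93 ± 0.96 (adjusted p = 0.403) for contact TAM over naive macrophages and -0.69 ± 0.93 (adjusted p = 0.745) between the TAM groups. Without contact TAM replicate 1 its value over naive macrophages was 0.04. The difference between the TAM groups turned to 0.24 without non-contact TAM replicate 1 and to 0.10 without contact TAM replicate 2.

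Promoters of this pair are shown for comparison with those of the neutrophil attractants. They run from 230 to 31 bases before the start on the minus strand, at chr5:92348920-92349119 for Cxcl10 and chr5:92328110-92328309 for Cxcl9. Capitals mark matches to the kB consensus, to the core of the interferon-stimulated response element (GAAA, any 2 bases, GAAA), or to TTCNNNGAA, the site bound by STAT dimers:
Cxcl10: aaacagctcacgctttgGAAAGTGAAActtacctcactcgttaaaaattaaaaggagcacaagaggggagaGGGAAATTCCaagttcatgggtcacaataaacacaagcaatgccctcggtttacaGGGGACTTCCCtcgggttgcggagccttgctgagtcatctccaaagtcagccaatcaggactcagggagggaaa
Cxcl9: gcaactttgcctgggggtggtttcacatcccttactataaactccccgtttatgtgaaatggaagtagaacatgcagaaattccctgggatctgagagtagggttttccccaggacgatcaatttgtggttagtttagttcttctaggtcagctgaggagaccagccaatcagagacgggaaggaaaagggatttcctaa
Cxcl10 held 1 match to the interferon element, a motif found in 2.98% of the mouse promoters, and kB consensus matches in 2 places, the second of which is made of overlapping matches. None of these motifs was in the Cxcl9 window. Of the remaining promoters, that of Cxcl14 held the interferon element and TTCNNNGAA, which was in 7.02% of promoters, and those of Cxcl12 and Cxcl13 held none of them.

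Cxcl16 (ENSMUSG00000018920.11, chromosome 11, 70453983 to 70459984, minus strand) encodes a membrane-bound ligand of Cxcr6 that also takes up oxidised lipoproteins. Its levels were 148 and 18.7 CPM in contact TAM, 475 and 182 CPM in non-contact TAM, and 29.8 and 18.5 CPM in naive macrophages. Both libraries of non-contact TAM lay above all others, and contact TAM replicate 2 lay within the naive range. On the log2 scale the difference was 3.91 ± 1.04 (adjusted p = 0.232) for non-contact TAM over naive macrophages, -2.0 ± 0.96 (adjusted p = 0.345) between the TAM groups and 1.91 ± 0.96 (adjusted p = 0.408) for contact TAM over naive macrophages. The last of these turned to -0.18 without contact TAM replicate 1. Its exons share 552 bases with Zmynd15 on the other strand, which had 41 to 1072 counts by library, and the kit does not mark the strand, so reads of the shared bases cannot be assigned to either gene.

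Cxcl14 (ENSMUSG00000021508.10, chromosome 13, 56288643 to 56296551, minus strand), a chemokine best known from epithelia, was the member with the largest fitted difference over naive macrophages in either TAM group. It stood at 10.7 and 0.0712 CPM in contact TAM, 25.9 and 5.35 CPM in non-contact TAM, and 0.235 and 0.242 CPM in naive macrophages. contact TAM replicate 2, with 3 counts, was the lowest of all macrophage libraries, whereas replicate 1 of the same group lay between the libraries of non-contact TAM. Its log2 fold change was 6.17 ± 2.11 (adjusted p = 0.27) for non-contact TAM over naive macrophages, and 4.61 ± 1.99 (adjusted p = 0.359) for contact TAM over naive macrophages. The value in contact TAM turned to -1.50 without its replicate 1. Between the TAM groups the difference was -1.56 ± 1.68 (adjusted p = 0.678), and 0.06 without non-contact TAM replicate 1.

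**Figure D2:**
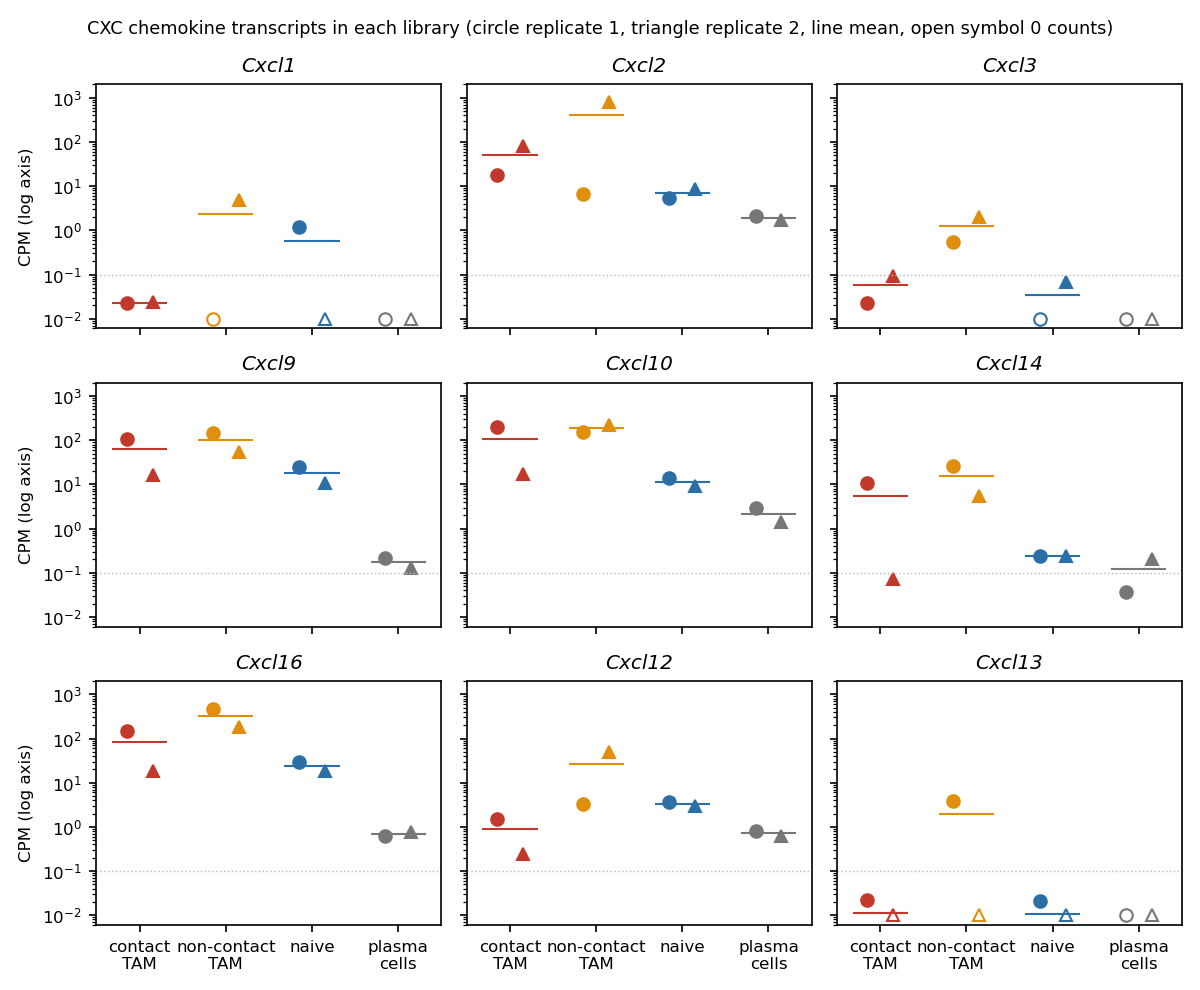
Level in CPM on a log axis of each CXC chemokine in the 8 libraries, by group, with replicate 1 as a circle, replicate 2 as a triangle and the mean as a line. Open symbols at the bottom stand for 0 counts, and the dotted line marks 0.1 CPM, close to what 3 counts are worth. Cxcl10, Cxcl9, Cxcl16, Cxcl14 and Cxcl12 had their lowest TAM value in contact TAM replicate 2. Cxcl1, Cxcl2, Cxcl3, Cxcl10 and Cxcl12 had their highest value in non-contact TAM replicate 2.

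Cxcl12, the stromal ligand of Cxcr4 (ENSMUSG00000061353.11, chromosome 6, 117168535 to 117181367, plus strand) had 1.53 and 0.237 CPM in contact TAM, 3.29 and 48.4 CPM in non-contact TAM, and 3.67 and 2.94 CPM in naive macrophages. Both libraries of contact TAM lay below every other macrophage library, and the high value came from non-contact TAM replicate 2 alone. Its log2 fold change was -4.84 ± 1.44 (adjusted p = 0.206) between the TAM groups, and -1.94 without that library. It was -1.76 ± 1.29 (adjusted p = 0.55) for contact TAM over naive macrophages. For non-contact TAM over naive macrophages the value was 3.08 ± 1.32 (adjusted p = 0.346), and it was 0.16 without that library.

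The 7 markers of marrow stromal cells, known producers of Cxcl12, had a summed level of 11.9 and 18.2 CPM in contact TAM, 16.8 and 61.8 CPM in non-contact TAM, and 47.4 and 25.0 CPM in naive macrophages. The sum was highest in the library with the highest Cxcl12, non-contact TAM replicate 2, and 5 of the 7 markers had their own highest level there. These were Kitl at 39.3 CPM against at most 38.0 CPM elsewhere, Col1a1 at 14.5 against 3.05, Foxc1 at 2.87 against 0.192, Adipoq at 1.13 against 0.208 and Ebf3 at 0.548 against 0.0674 CPM. Lepr, the leptin receptor gene, was at 0 in that library and at most 0.556 CPM in any macrophage library, and Pdgfrb was highest in contact TAM replicate 2 at 17.6 CPM. The sums of plasma cell markers (4415 CPM) and of megakaryocyte and platelet markers (227 CPM) were also highest in non-contact TAM replicate 2. Those of the other cell types listed were not. The share of all genes that were highest in that library was not counted. The part of stromal transcripts in the Cxcl12 values was not tested. In bulk samples, fewer cells of a type and less RNA per cell cannot be told apart.

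Cxcl13 (ENSMUSG00000023078.6, chromosome 5, 95956951 to 95961068, plus strand), which attracts B cells through Cxcr5, was found in 1 library. It had 1 and 0 counts in contact TAM, 158 and 0 counts in non-contact TAM, and 1 and 0 counts in naive macrophages. This member did not pass the filter on low counts and has no value in the fit reported here. A fit with no low count filter gave log2 fold changes of -7.08 between the TAM groups and 7.08 for non-contact TAM over naive macrophages, with values that rest on the same library and depend on the prior count. The 3.82 CPM in non-contact TAM replicate 1 had no counterpart in replicate 2 of that group.

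In edgeR's quasi-likelihood test none of the 8 members that passed the filter was called at an adjusted p of 0.05 in any comparison. For contact TAM over non-contact TAM 0% of all 15522 genes were called, for contact TAM over naive macrophages 0.219%, and for non-contact TAM over naive macrophages 0%. At an unadjusted p under 0.05 the members counted 2, 1 and 6 in that order, beside 17.1%, 14.6% and 15.2% of all genes. DESeq2 called Cxcl12 between the TAM groups, Cxcl10 and Cxcl14 for contact TAM over naive macrophages, and 6 members for non-contact TAM over naive macrophages, namely Cxcl2, Cxcl3, Cxcl9, Cxcl10, Cxcl14 and Cxcl16. The same tool called 11.1%, 8.96% and 8.49% of the genes for which it gave an adjusted p. Limma-voom called 0 members in each comparison. The comparisons over naive macrophages share their naive libraries, so values that go the same way in both are not independent.

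The libraries of non-contact TAM lay wholly above those of naive macrophages for 5 of the 9 members, Cxcl3, Cxcl9, Cxcl10, Cxcl14 and Cxcl16, and wholly below for 0, where 16.6% of all genes tested lay wholly above and 28.9% wholly below. For contact TAM over naive macrophages 2 members lay wholly above, Cxcl2 and Cxcl10, and 1 wholly below, Cxcl12, beside 23.0% and 36.7% of genes. Between the TAM groups 0 members lay wholly above and 3 wholly below in contact TAM, Cxcl3, Cxcl12 and Cxcl16, beside 24.4% and 22.3% of genes. The fitted median over the 8 members that passed the filter was -2.49, 1.92 and 4.06 on the log2 scale in the order contact TAM over non-contact TAM, contact TAM over naive and non-contact TAM over naive macrophages. Over all genes tested that median was 0.00, 0.00 and 0.06. Of these 8 values, for contact TAM over non-contact TAM, 8 were negative and 0 positive, beside 50.1% and 49.9% of genes. For contact TAM over naive macrophages 2 were negative and 6 positive, beside 49.8% and 50.2%, and for non-contact TAM over naive macrophages 0 were negative and 8 positive, beside 46.3% and 53.7%.

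**Figure D3:**
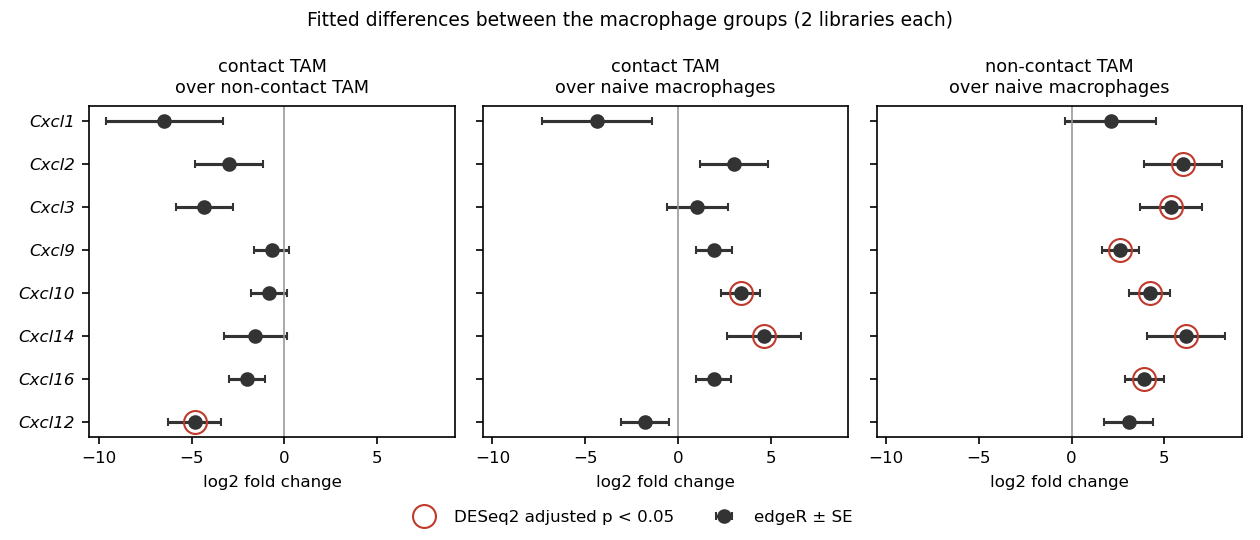
Log2 fold change with its standard error (horizontal axis) for the 8 CXC chemokines that passed the filter on low counts, in the 3 comparisons of macrophage groups, from edgeR. Red rings mark members that DESeq2 called at an adjusted p under 0.05, which were 1, 2 and 6 from left to right, and edgeR called 0.

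**Figure D4:**
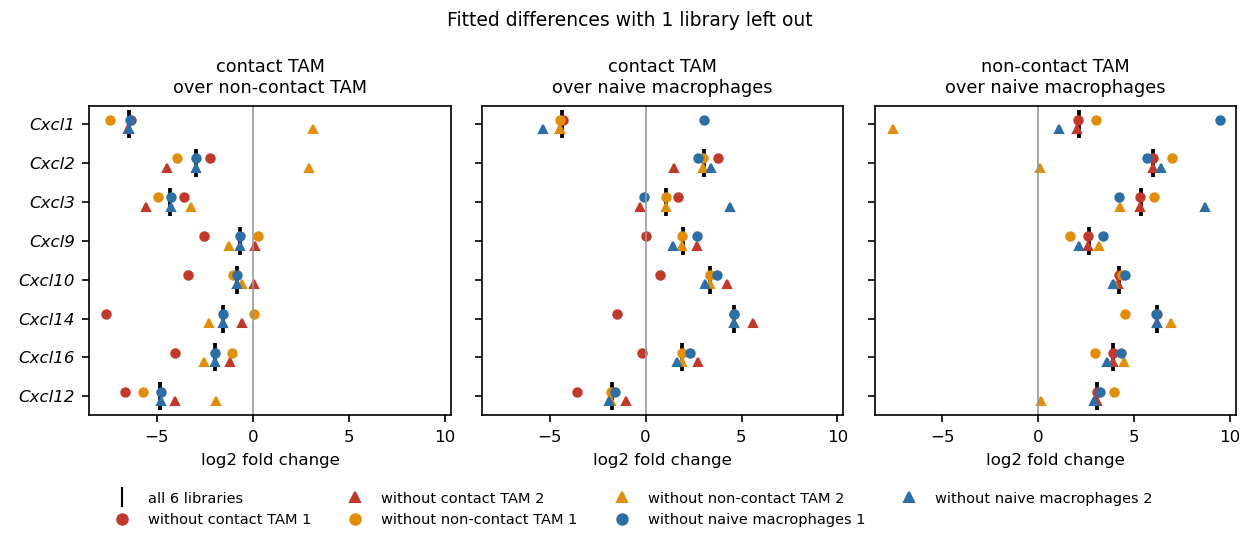
Log2 fold change of the 8 members with all 6 libraries (bar) and with each library left out in turn (symbols, coloured by the group of the library left out). Cxcl10 in non-contact TAM over naive macrophages moved between 3.90 and 4.54, whereas Cxcl2 in the same comparison moved between 0.10 and 6.97.

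The spread within a group differed between members. In contact TAM, replicate 1 exceeded replicate 2 by 6.73 times for Cxcl9, 11.7 times for Cxcl10, 7.92 times for Cxcl16 and 151 times for Cxcl14. The excess was 6.44 times for Cxcl12. Cxcl2 and Cxcl3 went the other way in the same group, with replicate 2 at 4.59 and 4.22 times replicate 1. Cxcl3 had only 1 and 4 counts there. In naive macrophages no member with counts in both libraries differed by more than 2.32 times, the value of Cxcl9. The contact TAM library with lower interferon-induced ligands, Cxcl12, Cxcl14 and Cxcl16 is the one with the Y-linked transcripts. The part of the sex of the mouse in these values was not tested. non-contact TAM replicate 2, highest in Cxcl1, Cxcl2, Cxcl3, Cxcl10 and Cxcl12, had 4415 CPM of plasma cell markers, against 94.5 to 506 CPM in the other macrophage libraries. In the plasma cell libraries themselves Cxcl2 stood at 2.10 and 1.70 CPM and Cxcl10 at 2.93 and 1.41 CPM. Cxcl12 stood there at 0.795 and 0.626 CPM, and Cxcl1 and Cxcl3 at 0. These levels come from a table that was counted separately. The part of plasma cells in the chemokine values of that macrophage library was not tested.

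Plasma cells had little of any CXC chemokine, with a sum over the 9 members of 6.71 and 4.82 CPM. Cxcl10 was the highest in replicate 1 at 2.93 CPM, with 1.41 CPM in replicate 2, and Cxcl16 stood at 0.624 and 0.756 CPM. Cxcl13, too, was at 0 in both libraries, in which 3 counts are worth 0.0367 and 0.0782 CPM. The receptor gene Cxcr4, through which Cxcl12 acts, stood at 11.9 and 6.55 CPM, and Cxcr3 at 11.4 and 66.7 CPM in the same libraries.

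Among other CXC ligands, the platelet chemokines were highest in non-contact TAM. Ppbp had 0.382 and 0.119 CPM in contact TAM, 10.2 and 42.5 CPM in non-contact TAM, and 1.07 and 0.485 CPM in naive macrophages. Pf4 had 8.97 and 8.78 CPM in contact TAM, 40.8 and 34.4 CPM in non-contact TAM, and 18.3 and 8.79 CPM in naive macrophages. Both were highest in non-contact TAM with no overlap (log2 fold change over naive macrophages 5.18 ± 0.96 and 1.61 ± 0.40, adjusted p = 0.219 and 0.225, and for contact TAM over non-contact TAM -6.67 ± 1.04 and -2.07 ± 0.41, adjusted p = 0.119 and 0.148). The list of megakaryocyte and platelet markers, to which they belong, summed to 59.6 and 42.3 CPM in contact TAM, 105 and 227 CPM in non-contact TAM, and 67.2 and 77.4 CPM in naive macrophages. The part of platelet RNA was not tested. Cxcl11, the third ligand of Cxcr3, which this annotation lists as a polymorphic pseudogene, had 6.25 and 0.498 CPM in contact TAM, 3.55 and 2.48 CPM in non-contact TAM, and 0.213 and 0 CPM in naive macrophages. Cxcl5, which did not pass the filter, had 0 and 0.0237 CPM in contact TAM, 0 and 3.06 CPM in non-contact TAM, and 0 and 0 CPM in naive macrophages. Of the 6 listed ligands 3 passed the filter and 0 were called in either direction in any comparison, beside 0% to 0.219% of all genes.

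All 8 listed CXC receptors passed the filter, and 0 were called in either direction in any comparison, beside 0% to 0.219% of all genes. The 3 with the smallest p differed by comparison. Between the TAM groups they were the atypical receptor genes Ackr1 (-4.05 ± 1.52) and Ackr3 (-4.24 ± 2.25), and Cxcr1 (3.58 ± 2.27), with adjusted p between 0.262 and 0.473. For contact TAM over naive macrophages they were Cxcr5 (-2.45 ± 0.56, adjusted p = 0.172), Cxcr1 (-3.82 ± 1.58) and Cxcr6 (1.63 ± 0.80), and for non-contact TAM over naive macrophages Cxcr5 (-2.72 ± 0.57, adjusted p = 0.219), Cxcr1 (-7.40 ± 2.17) and Cxcr2 (-2.40 ± 0.93). Ackr1 stood at 0.0899 and 0.0712 CPM in contact TAM and 0.121 and 2.74 CPM in non-contact TAM, and Ackr3 at 0.045 and 0.0475 CPM in contact TAM and 0 and 1.93 CPM in non-contact TAM, so both differences rest on non-contact TAM replicate 2. Cxcr1 was at or near the floor in every TAM library, and these fitted values depend on the prior count. Cxcr2, the receptor of Cxcl1, Cxcl2 and Cxcl3 on neutrophils, stood at 81.9 and 71.1 CPM in contact TAM, 10.3 and 94.9 CPM in non-contact TAM, and 232 and 371 CPM in naive macrophages. The 7 neutrophil markers summed to 47494 and 27476 CPM in contact TAM, 7344 and 16870 CPM in non-contact TAM, and 45354 and 66133 CPM in naive macrophages. Like Cxcr2, they were highest in naive replicate 2 and lowest in non-contact TAM replicate 1. In non-contact TAM replicate 2, by contrast, Cxcr2 was above both contact TAM libraries and the marker sum below both. The part of neutrophils in the Cxcr2 values was not tested. Cxcr5 belongs to B cells, whose 5 markers all had negative fitted values in both TAM groups over naive macrophages. These ran from -3.37 (Ms4a1) to -1.26 (Cd79b) in contact TAM and from -3.78 (Ms4a1) to -0.27 (Cd79b) in non-contact TAM. The part of B cells in the Cxcr5 values was not tested.

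Of 9 genes for proteases that cut or release chemokines, edgeR's test called 0 in either direction in each comparison, beside 0% to 0.219% of all genes. The gelatinase gene Mmp2, whose product inactivates Cxcl12, had 4.76 and 3.89 CPM in contact TAM, 41.9 and 28.6 CPM in non-contact TAM, and 5.08 and 5.30 CPM in naive macrophages. It was highest in non-contact TAM with no overlap, with a log2 fold change of -3.02 ± 0.34 (adjusted p = 0.0679) between the TAM groups and 2.91 ± 0.34 (adjusted p = 0.183) for non-contact TAM over naive macrophages. The macrophage elastase gene Mmp12 had -3.53 ± 0.92 and 2.85 ± 0.89 in the same comparisons. Dpp4, whose product trims Cxcl9, Cxcl10 and Cxcl12, had 155 and 103 CPM in contact TAM, 54.3 and 18.2 CPM in non-contact TAM, and 34.8 and 47.9 CPM in naive macrophages (1.83 ± 0.55 between the TAM groups and 1.79 ± 0.55 for contact TAM over naive macrophages, adjusted p = 0.208 and 0.256). For contact TAM over naive macrophages the next were the cathepsin G gene Ctsg (-1.32 ± 0.59) and Adam10 (0.56 ± 0.25), whose product releases Cxcl16 from the membrane, and Ctsg had -1.86 ± 0.60 in non-contact TAM over naive macrophages.

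Interferon signalling drives Cxcl9 and Cxcl10, and NF-kB signalling drives Cxcl1 and Cxcl2. Of their listed genes 0 of 16 and 0 of 15 tested were called in either direction in any comparison. Of all genes, 0%, 0.219% and 0% were called for contact TAM over non-contact TAM, contact TAM over naive and non-contact TAM over naive macrophages. At an unadjusted p under 0.05 in edgeR's test the interferon list counted 1, 6 and 3 genes in that order. The NF-kB list counted 3, 11 and 13, beside 17.1%, 14.6% and 15.2% of all genes. In the interferon list 16 of 16 had positive fitted values for contact TAM over naive macrophages and 14 of 16 for non-contact TAM, beside 50.2% and 53.7% of all genes, with medians of 0.90 and 0.55. The difference between the TAM groups was positive for 11 and negative for 5, beside 49.9% and 50.1% of all genes, with a median of 0.20. The guanylate-binding protein gene Gbp2, an interferon target, had 304 and 96.9 CPM in contact TAM, 235 and 143 CPM in non-contact TAM, and 44.0 and 37.5 CPM in naive macrophages (2.44 ± 0.58 and 2.36 ± 0.58 for the TAM groups over naive macrophages, adjusted p = 0.18 and 0.224). Each TAM library lay above both naive libraries. Jak2 (1.10 ± 0.28) and the feedback inhibitor Socs1 (1.89 ± 0.56) followed for contact TAM over naive macrophages, Gbp5 (2.67 ± 0.82) and Irf1 (1.17 ± 0.39) for non-contact TAM over naive macrophages, and between the TAM groups the receptor gene Ifngr1 (1.41 ± 0.48), Jak2 (0.55 ± 0.27) and Jak1 (0.53 ± 0.32). Ifng, the gene of interferon gamma, reached at most 3.6 CPM, in contact TAM replicate 1, and Ifnb1, of interferon beta, stood at 21.4 CPM in non-contact TAM replicate 2 and at most 0.0967 CPM in the other macrophage libraries.

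In the NF-kB list 13 of 15 fitted values were positive for contact TAM over naive macrophages and 15 of 15 for non-contact TAM. The shares of all genes were 50.2% and 53.7%, and the medians of the list were 1.12 and 2.27. In contact TAM over non-contact TAM 4 were positive and 11 negative, beside 49.9% and 50.1% of all genes, with a median of -0.59. Il1b, of interleukin 1 beta, had 331 and 420 CPM in contact TAM, 322 and 1735 CPM in non-contact TAM, and 40.7 and 51.7 CPM in naive macrophages. All 4 TAM libraries lay above the naive ones (3.18 ± 0.78 and 4.60 ± 0.84 over naive macrophages, adjusted p = 0.191 and 0.219). The subunit genes Rel and Nfkb2 had 1.89 ± 0.46 and 1.06 ± 0.25 in contact TAM, and 2.27 ± 0.47 and 1.19 ± 0.25 in non-contact TAM, over naive macrophages. Between the TAM groups the smallest p belonged to Il1a (-6.92 ± 1.35, adjusted p = 0.148), the receptor gene Tlr4 (-1.08 ± 0.36) and the feedback inhibitor Tnfaip3 (-3.14 ± 1.11). Tnfaip3 stood at 125 and 131 CPM in contact TAM and 149 and 2167 CPM in non-contact TAM, so that 1 library carried its difference. Tnf, of tumour necrosis factor, was highest in the same library as Cxcl2, with 27.0 and 66.4 CPM in contact TAM, 23.7 and 909 CPM in non-contact TAM, and 15.6 and 17.2 CPM in naive macrophages.

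The genes most like each member were ranked by Pearson's r of log2 CPM over the 6 macrophage libraries, which are given as a description, since the points share groups and libraries. Cxcl2 was most like Klf6, Trib1 and Zfp296 (r = 0.996, 0.995 and 0.994), and Cxcl10 most like Slamf7, Gbp5 and Spp1 (0.988, 0.986 and 0.983). For Cxcl9 the nearest were Nsmaf, Mmp14 and Lacc1 (0.997, 0.993 and 0.988), for Cxcl16 Morc2a, Ranbp2 and Dnase1l3 (0.987, 0.986 and 0.984), and for Cxcl14 Oasl1, Nab2 and Dnase1l3 (0.989, 0.980 and 0.978). Mmp14 is an example of a wide range, with 244 and 25.8 CPM in contact TAM, 447 and 83.5 CPM in non-contact TAM, and 34.2 and 13.9 CPM in naive macrophages. Cxcl12 was most like Tent5c, Sec24d and Gnl3 (0.998, 0.989 and 0.984). The genes nearest to Cxcl3 (Mydgf, Gars and Dnaja3) and to Cxcl1 (Apc, Nupl2 and Gna11) had r of 0.979 to 0.983 and narrower ranges, as for Mydgf with 52.6 to 86.6 CPM.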

How the data were processed

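Whole-number read counts per gene were deposited by the authors in a table of 6 macrophage libraries and a table of 2 plasma cell libraries. Per the labels' protocols, cDNA was made with SMART-Seq v4, which leaves reads without strand information. STAR, featureCounts, DESeq2 1.26, mm10 and GRCm38 stand in the submitters' processing notes without a role. The sources used here do not give the annotation or strand setting. Macrophage gene IDs were matched without version to GENCODE M21 (47224 of 47643), which supplied symbols, coordinates and the length of the longest coding transcript.

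One edgeR 4.0.16 quasi-likelihood model (R 4.3.3, default quasi-dispersion, TMM, filterByExpr with a minimum count of 10 and total of 15) was fitted to the 6 macrophage libraries with 3 residual degrees of freedom. It kept 15522 genes, and p-values were adjusted over all of them by Benjamini-Hochberg. The standard error is the size of the log2 fold change divided by the square root of F. Alternatives used DESeq2 1.42.0, limma 3.58.1 and other settings. The script was tested on simulated data. Ratios of small counts carry 95% exact binomial intervals, for counting error only. Named genes were the 9 members, the 3 genes with the smallest p per pathway list and comparison, and the 3 genes most like each member (mean log2 CPM of at least 3, prior count 2). Others, among them Cxcr3, Cxcr4, Ifng, Ifnb1, Tnf and single cell type markers, were named outside this rule. Members, lists and rules were chosen with earlier results of these data known.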

Additional observations from a re-analysis of the deposited data

Results flagged for a closer look

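The comparisons of macrophage groups do not use the plasma cell libraries, and there 6 of the 9 CXC chemokines had more than the 3 counts that a count of 0 allows. In replicates 1 and 2 the levels were 2.1 and 1.7 CPM for Cxcl2, 0.22 and 0.13 CPM for Cxcl9, 2.93 and 1.41 CPM for Cxcl10, 0.795 and 0.626 CPM for Cxcl12, and 0.624 and 0.756 CPM for Cxcl16. Cxcl14 passed that level in replicate 2 alone, at 0.209 CPM. There are no control libraries for these values.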

How the results depend on the processing

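All 6 counts (members and all genes called, 3 comparisons) depended on the processing. Comparisons are given as contact TAM over non-contact TAM, contact TAM over naive and non-contact TAM over naive macrophages. With 0 members called in the main fit of each, DESeq2 called 1, 2 and 6 and a fit with no low count filter 5, 5 and 8, Cxcl13 among them in the first and last. For all genes, with 0, 34 and 0 calls, DESeq2 gave 1619, 1229 and 1267, no low count filter 1871, 1437 and 1548, and bias-adjusted quasi-dispersions 22 and 56 in the first 2. A replicate block on mouse number gave 59 and 187. The second comparison had 0 calls with limma-voom, 22 with RLE size factors, 20 without immunoglobulin genes and 664 with only the groups compared. The cause of these changes was not tested, beyond the different genes or libraries each fit holds.

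With 1 library left out, its group rests on 1 sample that is assumed to vary like the others. All-gene calls then ranged from 0 to 1510, 0 to 534 and 0 to 477. Member calls ranged from 0 to 1 in the first comparison (Cxcl12 without non-contact TAM replicate 1) and the last (Cxcl2 without non-contact TAM replicate 1, Cxcl13 without replicate 2), and stayed at 0 in the second. Of the members' fold changes, the range crossed 0 between the TAM groups for Cxcl1 (-7.45 to 3.13), Cxcl2 (-4.49 to 2.90), Cxcl9 (-2.57 to 0.24), Cxcl10 (-3.41 to 0.06) and Cxcl14 (-7.67 to 0.06). For contact TAM over naive it crossed 0 for Cxcl1 (-5.34 to 3.02), Cxcl3 (-0.29 to 4.40), Cxcl14 (-1.50 to 5.59) and Cxcl16 (-0.18 to 2.71), and for non-contact TAM over naive for Cxcl1 (-7.57 to 9.45). Among recomputed fold changes 13 changed sign, 27 passed the threshold that the main fit did not and 314 kept their direction and side.

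The replicate block turned Cxcl1 in non-contact TAM over naive to -0.39 and called no member. Other fold changes kept their sign but moved by over 1.5 times under the block or limma-voom. Between the TAM groups Cxcl2 was -0.95 with the block and -0.91 with limma-voom, Cxcl9 -1.06 and -1.05, Cxcl10 -1.67 and -1.67, Cxcl14 -3.20 and -3.59, and Cxcl1 -2.48 with limma-voom. In contact TAM over naive Cxcl14 was 2.82 with the block and 2.18 with limma-voom, and Cxcl1 -2.29 with limma-voom. For non-contact TAM over naive Cxcl2 was 3.98 with the block and 3.61 with limma-voom, and limma-voom gave 1.92 for Cxcl12 and 0.20 for Cxcl1. The cause was not tested. The mouse numbers of the TAM labels do not mark 1 animal for mouse 2, since its libraries differ in Xist and Ddx3y, and replicate differences of the TAM groups correlated at 0.16 across genes, so the block is given here only. With 2 libraries per group and fits on at most 6, precision is limited by replicates for every member. Depth is a further limit for Cxcl1, Cxcl3, Cxcl13 and Cxcl14, which had 3 counts or fewer in at least 1 macrophage library.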
